A study of Homo sapiens with 10 samples.

Results

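The respiratory chain genes described here are the 97 of 20535 listed gene symbols taken as subunits of the mitochondrial respiratory complexes or of ATP synthase. Among them are NDUFA4L2, a paralog of NDUFA4, and ATP5S, now named DMAC2L. All 97 were taken by symbol. The rule took the 13 genes that start with MT-, and those that start with NDUFA, NDUFB, NDUFC, NDUFS, NDUFV, SDH, UQCR, COX4 to COX8 or ATP5. The prefixes matched 112 symbols, of which 15 were left out because they name assembly factors (11), pseudogenes (2) or read-through loci (2). The 13 mitochondrial-encoded genes comprised 7 subunits of complex I, 1 of complex III, 3 of complex IV and 2 of complex V. The 84 nuclear-encoded genes comprised 37 subunits of complex I, 4 of complex II, 8 of complex III, 18 of complex IV and 17 of complex V.

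The respiratory chain passes electrons from NADH and succinate to oxygen and uses the energy to pump protons across the inner mitochondrial membrane, and ATP synthase lets the protons flow back to make ATP. Complex II is encoded wholly in the nucleus, whereas the other complexes are assembled from subunits of both genomes. Mitochondrial DNA is transcribed from both strands as long precursors that are cut into single RNAs, so that the levels of mature RNAs also depend on processing and decay. All mitochondrial protein genes but MT-ND6 are read from one strand, the heavy strand, and MT-ND6 is the only subunit gene transcribed from the light strand. Erythroid cells lose their mitochondria late in maturation, and K562 is an immature erythroleukemia line that retains them.

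RNA-seq had been performed on K562 cells in which the HS2 enhancer of the β-globin locus was targeted, to ask how the transcriptome responded. Each of 5 groups held 2 libraries. The sgGal4 group received a nontargeting sgRNA, and its labels name no effector. The remaining groups, called sgHS2 together, carried 4 sgRNAs against HS2 and differed in their effectors. The K libraries were labelled dCas9-KRAB and the L libraries dCas9-LSD1, each a single effector fused to catalytically dead Cas9. The LK and KL libraries were labelled enCRISPRi-LK and enCRISPRi-KL, which hold both effectors, in LK with LSD1 on dCas9 and KRAB on MCP (a coat protein that binds hairpins in the sgRNA) and in KL the other way round. KRAB is a repressor domain that recruits heterochromatin factors, and LSD1 is a histone demethylase. All groups share the K562 background. The study's methods describe doxycycline treatment to induce dCas9 in its lines, for targeting sgRNAs and for sgGal4, before analysis. The library titles do not name doxycycline, so whether all groups received it equally cannot be read from them. Its part in the values was not tested. The study's figure legend calls the replicates experiments, but the sources do not say whether these were separate cultures, so p-values measure only the spread between these libraries, which may be technical.

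The values are TPM, a measure of relative transcript abundance. They are scaled per transcript length and to a fixed total, so that a rise in abundant RNAs lowers every other value. Listed TPM summed to between 790470 and 844414 per library, and the read depth is unknown. Of 12 markers of K562 erythroleukemia cells, 11 averaged at least 1 TPM, and GATA1 was listed at 0. HBE1, an embryonic β-like globin gene controlled by HS2, was at 1376 and 1620 TPM in sgGal4 and at 361 to 1019 TPM in sgHS2. The effector transcripts did not follow every label. KDM1A, which encodes LSD1, was at 104.7 and 84.2 TPM in L and at 25.2 to 33.5 TPM in all other libraries, including LK and KL. ZNF10, the usual source of KRAB domains, was at 0.97 to 3.8 TPM in sgGal4 and K, at 128 and 136 TPM in L, at 36.8 and 31.5 TPM in LK and at 365 and 360 TPM in KL. Whether the transgenes share enough sequence with these genes to be counted was not tested, so K, L, LK and KL below mean the libraries that carry those labels.

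The mitochondrial genes were by far the most abundant members. Their means over the 10 libraries ran from 8083 TPM for MT-ND5 to 116207 TPM for MT-ATP8, and in every library all 13 ranked among the top 14 genes. The 71 nuclear members that averaged at least 1 TPM had means from 3.65 to 741 TPM with a median of 105 TPM, against a median of 14.2 TPM over all 10127 genes that passed this filter. Next to MT-ATP8, MT-ND4L had the highest mean level (44909 TPM), followed by MT-CO2 (25833 TPM) and MT-ND1 (25678 TPM). MT-CO1, the catalytic core of cytochrome c oxidase, averaged 11532 TPM and MT-CYB, the mitochondrial subunit of complex III, 12023 TPM. Within groups the log2 values of the 13 genes varied by a median SD of 0.13, less than the 0.18 of nuclear members and the 0.31 of all tested genes.

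**Figure D1:**
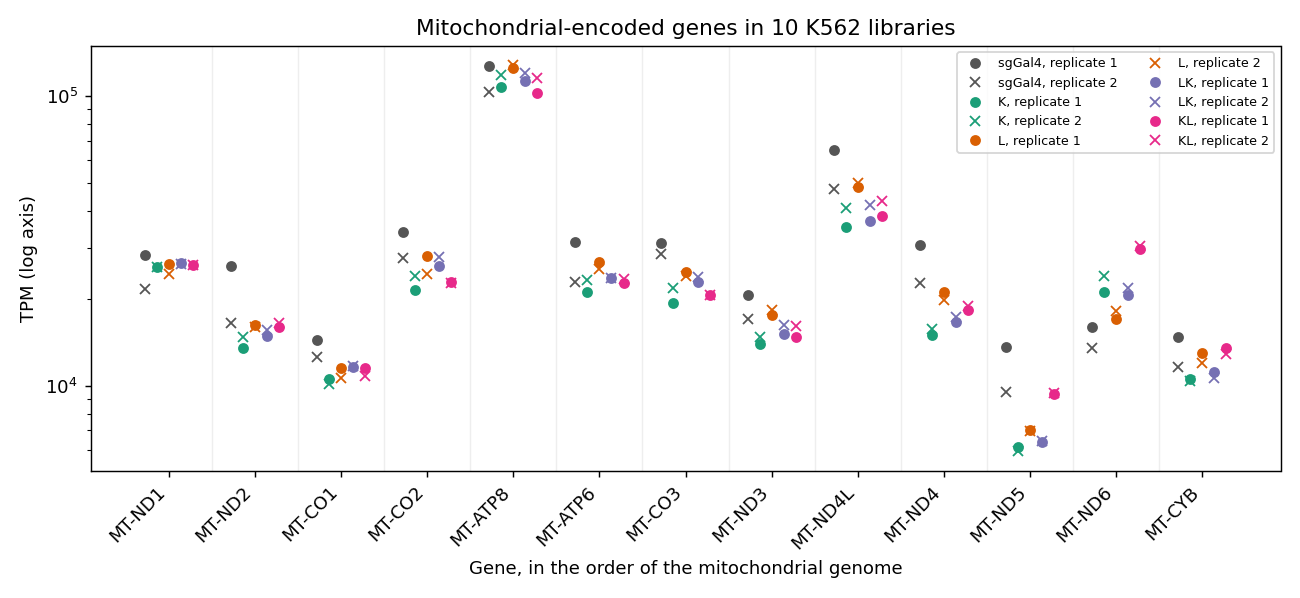
TPM (log axis) of the 13 mitochondrial-encoded genes in the order of the mitochondrial genome, with a point for each of 10 libraries (filled circles, replicate 1; crosses, replicate 2). MT-ATP8 lies highest in every library, MT-ND6 is lowest in the sgGal4 libraries and highest in KL, and MT-ND5 lies below the sgGal4 libraries in all 8 sgHS2 libraries.

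Some of these genes are not separate on the genome, which limits how far their levels can be read apart. The genes are packed end to end on chromosome M, and coordinates below follow the GENCODE annotation of GRCh37. MT-ATP8 (chrM:8366-8572) and MT-ATP6 (chrM:8527-9207) share 46 bases, and MT-ND4L (chrM:10470-10766) and MT-ND4 (chrM:10760-12137) share 7 bases. Each pair is known to lie on a single bicistronic RNA. The shared stretches are shown because reads across them belong to both genes, with the start codon of the downstream gene and the stop codon of the upstream gene in capitals.
MT-ATP8 and MT-ATP6, chrM:8527-8572: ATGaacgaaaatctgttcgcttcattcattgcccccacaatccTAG
MT-ND4L and MT-ND4, chrM:10760-10766: ATGcTAA

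The TPM of MT-ATP8 was 4.08 to 5.14 times that of MT-ATP6 in the 10 libraries, although the genes are 207 and 681 bases long and lie on the same RNA. For MT-ND4L (297 bases) and MT-ND4 (1378 bases) the ratio was 2.11 to 2.62. In both pairs the shorter gene had the higher TPM in all 10 libraries. MT-ND5 (chrM:12337-14148) and MT-ND6 (chrM:14149-14673) lie on opposite strands and meet end to end. The 60 bases at their junction are shown on the strand of MT-ND5, because the mitochondrial gene that rose meets one that fell at this point. The capitals mark the stop codon of MT-ND5 followed by the complement of the MT-ND6 stop codon.
MT-ND5 and MT-ND6 junction, chrM:14119-14178: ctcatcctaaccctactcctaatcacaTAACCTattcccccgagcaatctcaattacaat

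The strand setting used for counting is not given in the sources used here, so reads from MT-ND6 and from heavy-strand RNA across the same bases cannot be told apart. The labels name a poly(A) kit and the study's methods another kit. How evenly MT-ND6 RNA and heavy-strand RNAs were captured is therefore unknown, which limits the levels and ratios of MT-ND6 below. Copies of mitochondrial DNA in the nuclear genome matter too, because the authors kept only reads with a single location. Of all 75-base windows of each gene, 36.6% of MT-CO1, 34.4% of MT-ND2 and 28% of MT-ATP6 also occur elsewhere in GRCh37, against 7.10% of MT-ND6, 0.17% of MT-ND5 and none of MT-ND4, MT-ND4L, MT-ND3, MT-CYB and MT-ATP8. Only matches without a mismatch were counted. The mitochondrial sequence in the authors' hg19 is not named and may differ from that of GRCh37, so these shares may not hold for their alignment. The part of such reads in the values was not tested.

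The 2 compartments were first compared by their sums. MT-ATP8 alone made up 28.2% to 34% of the mitochondrial sum, and no sum was taken without it. The 13 mitochondrial genes took 53.6% and 43.7% of the listed TPM in sgGal4, 39.9% and 44.3% in K, 46.6% and 46.1% in L, 42.8% and 44% in LK, and 42.9% and 44.9% in KL. The groups overlapped, since sgGal4 replicate 2 lay within the range of sgHS2 while sgGal4 replicate 1 stood above all other libraries. The mean of the 4 sgHS2 groups (43.9%) differed from that of sgGal4 (48.7%) by -4.72 percentage points, with a pooled SD within groups of 3.52 points, and without sgGal4 replicate 1 the difference turned to 0.267 points.

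The 84 nuclear members took a small share by contrast. They made up 2.47% and 2.45% of the nuclear-encoded TPM in sgGal4 and between 2.61% and 2.85% in the 8 sgHS2 libraries, without overlap. How often other sets of genes separate in this way was not counted, so the separation is description only. Other genes with short transcripts also leaned upward, as given below. The difference of group means was 0.275 percentage points (2.74% against 2.46%) with a pooled SD within groups of 0.0782 points, and it lay between 0.246 and 0.303 points when any 1 library was left out. The ratio of the mitochondrial to the nuclear sum was 46.7 and 31.7 in sgGal4 and between 25.4 and 30.7 in sgHS2. On the log2 scale the difference of sgHS2 from sgGal4 in this ratio was -0.43 (pooled SD 0.19), and -0.14 without sgGal4 replicate 1. No p is given for these sums.

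**Figure D2:**
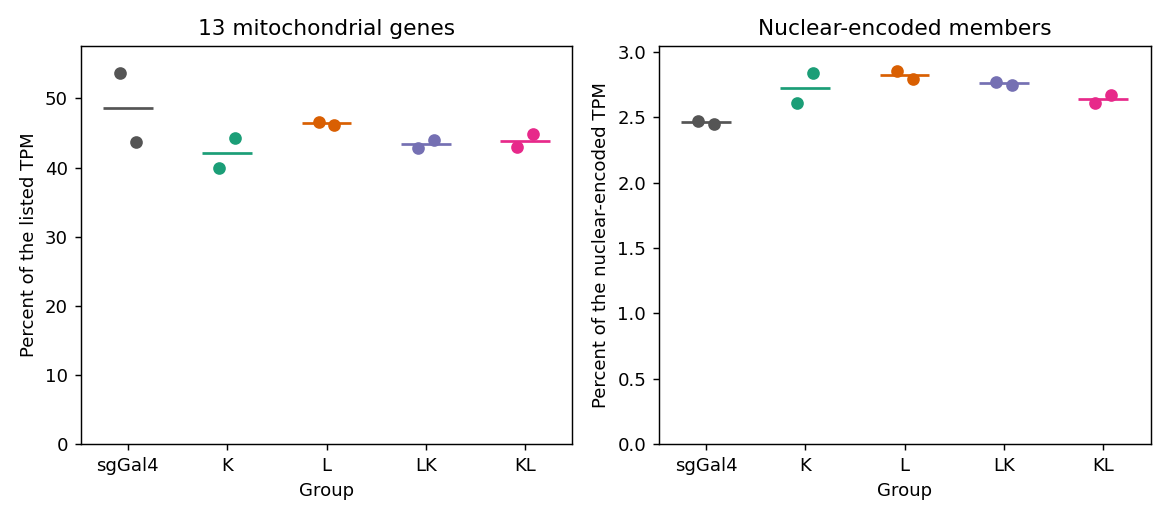
Share of the listed TPM taken by the 13 mitochondrial genes (left) and share of the nuclear-encoded TPM taken by the 84 nuclear members (right), in percent, with a point for each library and a bar at the mean of each group of 2. On the left sgGal4 replicate 1 (53.6%) stands above all other libraries, and on the right both sgGal4 libraries (2.45% and 2.47%) lie below the 8 sgHS2 libraries (2.61% to 2.85%).

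The mitochondrial genes did not change together. Against sgGal4, MT-ND6 rose in 3 of the 4 groups, while MT-ND5, MT-ND4 and MT-CO3 fell in 3 groups each. In K, 7 of the 13 genes passed an adjusted p of 0.05 (1 higher and 6 lower), where 1.62% of all tested genes did. In L 1 gene passed (lower), against 0.869% of all tested genes. In LK 4 passed (1 higher and 3 lower), against 2% of all tested genes, and in KL 3 passed (1 higher and 2 lower), against 1.36%. With the 4 groups averaged, 7 passed (1 higher and 6 lower), where the share of all tested genes was 3.26%. The 5 comparisons share the sgGal4 libraries and are not independent. Median log2 changes of the 13 genes were -0.38 in K, -0.18 in L, -0.26 in LK and -0.28 in KL, against medians of all tested genes of 0.06, 0.01, 0.03 and 0.05.

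**Figure D3:**
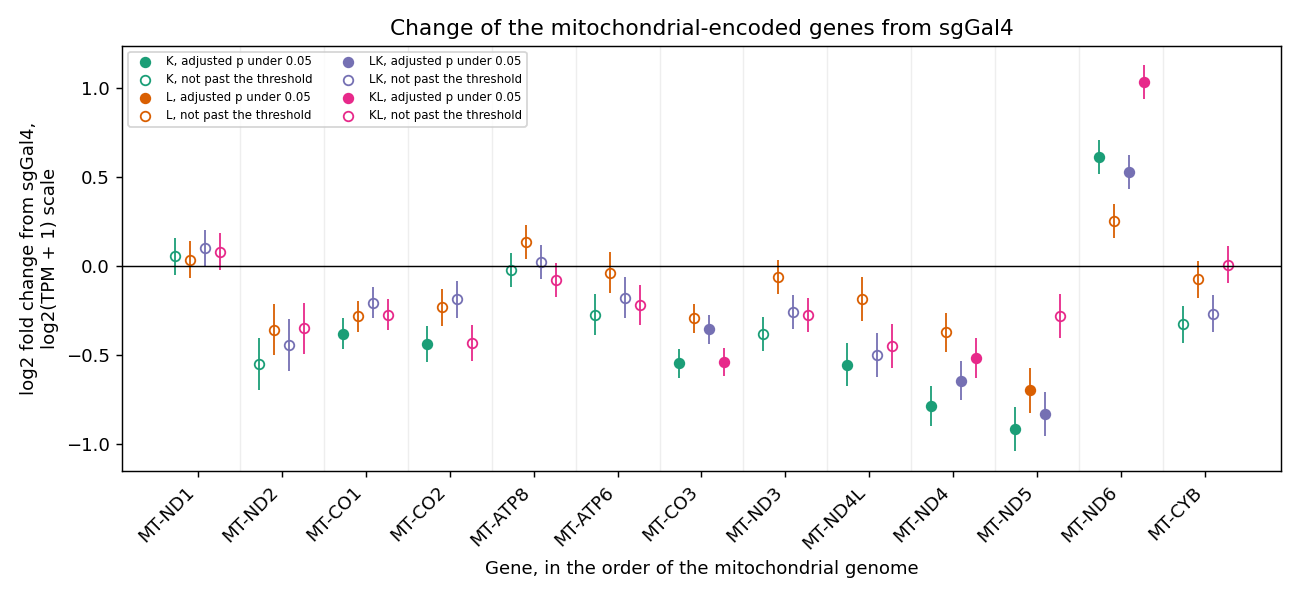
log2 fold change from sgGal4 of the 13 mitochondrial genes on the log2(TPM + 1) scale, in the order of the genome, with bars of 1 standard error. Filled points passed an adjusted p of 0.05 and open points did not. MT-ND6 lies above 0 in all 4 groups (0.26 to 1.04) and the neighbouring MT-ND5 below 0 (-0.91 to -0.28).

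MT-ND6, a membrane subunit of complex I, was at 15937 and 13482 TPM in sgGal4. It was at 21019 and 23993 TPM in K, 16933 and 18074 TPM in L, 20643 and 21700 TPM in LK, and 29636 and 30489 TPM in KL. All 8 sgHS2 libraries lay above both sgGal4 libraries, with L closest to sgGal4 and KL farthest away. Here and for the genes below, how many of all tested genes separate in this way was not counted. Such separation is given as description only. The log2 change was 1.04 ± 0.09 (SE) in KL (adjusted p = 6.59e-05), 0.62 ± 0.09 in K (adjusted p = 0.0056) and 0.53 ± 0.09 in LK (adjusted p = 0.0119). In L it was 0.26 ± 0.09 and did not pass (adjusted p = 0.255). The mean over the sgHS2 groups was 0.61 ± 0.07 higher than sgGal4 (adjusted p = 0.000605), and stayed between 0.49 and 0.73 when any 1 library was left out. KL was also higher than LK, which holds the same effectors in the other arrangement. The LK minus KL difference was -0.51 ± 0.09 (adjusted p = 0.0308, with 0.385% of all tested genes passing in this comparison). That call was lost without any 1 of both LK libraries, both KL libraries, both L libraries or K replicate 2 (adjusted p 0.0501 to 0.334). The difference of dual from single effectors, 0.35 ± 0.07, did not pass (adjusted p = 0.0659), and the change in LK was smaller than that in K.

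MT-ND5, the proton-pumping complex I subunit read from the opposite strand beside MT-ND6, was at 13614 and 9519 TPM in sgGal4. It was at 6149 and 5931 TPM in K, 7052 and 6988 TPM in L, 6366 and 6441 TPM in LK, and 9358 and 9414 TPM in KL. The ranges of sgGal4 and sgHS2 did not overlap, but KL lay just below sgGal4 replicate 2. The log2 change was -0.91 ± 0.12 in K (adjusted p = 0.00384), -0.70 ± 0.12 in L (adjusted p = 0.0173) and -0.83 ± 0.12 in LK (adjusted p = 0.00547). In KL it was -0.28 ± 0.12 (adjusted p = 0.317). The difference between LK and KL was -0.55 ± 0.12, with LK lower, and did not pass (adjusted p = 0.0863).

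Shares of the 13-gene sum do not depend on the level of nuclear RNAs. They do depend on MT-ATP8, which made up 28.2% to 34% of that sum. MT-ND6 made up 3.52% and 3.80% of the mitochondrial TPM in sgGal4, 6.54% and 6.86% in K, 4.43% and 4.79% in L, 5.97% and 5.98% in LK, and 8.58% and 8.31% in KL. The 5 groups did not overlap in this share and stood in the order sgGal4, L, LK, K and KL. The ratio of MT-ND6 to MT-ND5 was 1.17 and 1.42 in sgGal4, 3.42 and 4.05 in K, 2.40 and 2.59 in L, 3.24 and 3.37 in LK, and 3.17 and 3.24 in KL. By this ratio sgGal4 was lowest and L next, and LK and KL lay side by side. After the mitochondrial genes had been rescaled to a sum of their own, the log2 change of MT-ND6 passed in all 4 groups (0.87 in K, 0.33 in L, 0.71 in LK and 1.21 in KL).

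**Figure D4:**
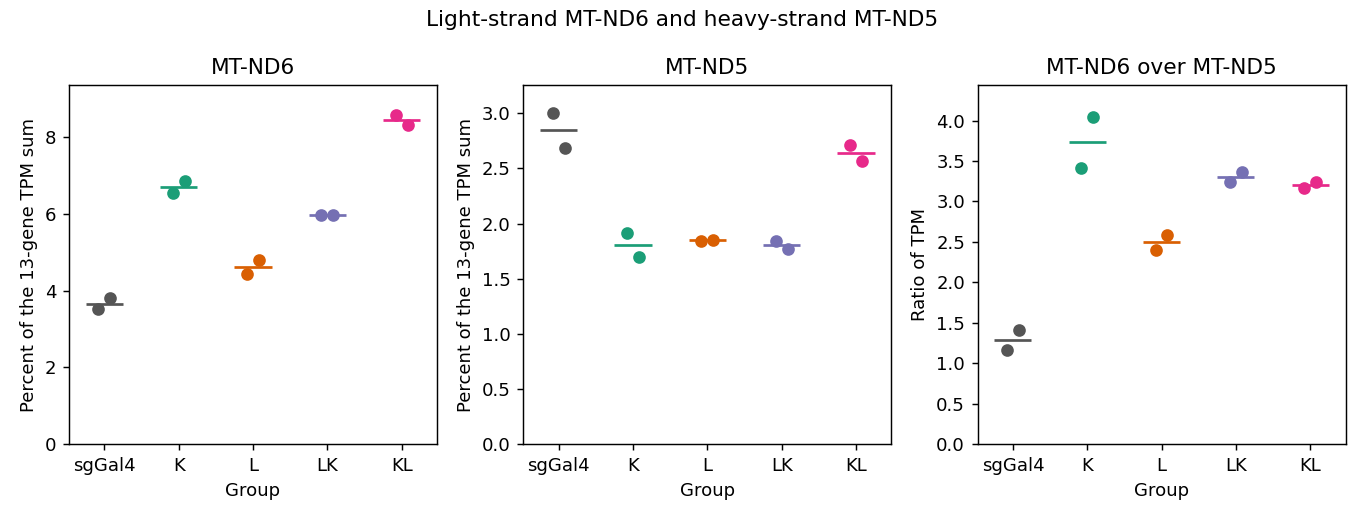
MT-ND6 (left) and MT-ND5 (middle) as percent of the TPM sum of the 13 mitochondrial genes, and the ratio of their TPM (right), with a point for each library and a bar at each group mean. MT-ND6 rises from 3.52% and 3.80% in sgGal4 to 8.58% and 8.31% in KL, and the ratio is 1.17 and 1.42 in sgGal4 and at least 2.40 in every sgHS2 library.

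MT-ND4, another proton-pumping subunit of complex I, was at 30681 and 22693 TPM in sgGal4, 14927 and 15680 TPM in K, 21101 and 19720 TPM in L, 16534 and 17298 TPM in LK, and 18181 and 18774 TPM in KL. Both sgGal4 libraries lay above the 8 others. Its log2 change was -0.79 ± 0.11 in K (adjusted p = 0.00384), -0.64 ± 0.11 in LK (adjusted p = 0.0111) and -0.51 ± 0.11 in KL (adjusted p = 0.0345), and -0.37 ± 0.11 in L, which did not pass (adjusted p = 0.158). The ratio of MT-ND4 to MT-ND1, the first complex I gene of the heavy-strand RNA, was 1.09 and 1.05 in sgGal4 and between 0.58 and 0.81 in sgHS2. MT-ND1 itself ranged from 21516 to 28247 TPM, with both extremes in sgGal4, and its log2 changes lay between 0.04 and 0.10 (adjusted p 0.724 to 0.929).

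MT-CO3, a core subunit of cytochrome c oxidase, was at 31099 and 28464 TPM in sgGal4, 19234 and 21676 TPM in K, 24725 and 23898 TPM in L, 22897 and 23669 TPM in LK, and 20492 and 20509 TPM in KL. Again the groups did not overlap with sgGal4. It fell by 0.54 ± 0.08 on the log2 scale in K (adjusted p = 0.00511) and in KL (adjusted p = 0.00325), and by 0.35 ± 0.08 in LK (adjusted p = 0.0411). In L the log2 change was -0.29 ± 0.08 (adjusted p = 0.125). Rescaled within the mitochondrial genes, MT-CO3 kept its call in KL (-0.37, adjusted p = 0.0188) but not in K (-0.28, adjusted p = 0.0551) or LK (-0.18, adjusted p = 0.223). Without K replicate 1 the MT-CO3 call in K was lost (0.0799), as was that in KL without either KL library (0.0531 and 0.0665), and that in LK without any 1 of 7 libraries (0.0689 to 0.29). The MT-ND4 call was lost in K without either K library (0.0519 and 0.0642), in LK without either LK library (0.108 and 0.107) and in KL without any sgHS2 library (0.0514 to 0.193). With the groups averaged, the calls of MT-ND6, MT-ND5, MT-ND4 and MT-CO3 were kept without any 1 of the 10 libraries. Their sizes depended on sgGal4 replicate 1, without which the log2 change of MT-ND4 went from -0.58 to -0.36 with the groups averaged, from -0.51 to -0.30 in KL and from -0.64 to -0.42 in LK, and that of MT-ND5 from -0.68 to -0.42 with the groups averaged and from -0.70 to -0.44 in L.

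Of the remaining genes, MT-CO1 (-0.38), MT-CO2 (-0.44) and MT-ND4L (-0.55) passed in K, with adjusted p of 0.0459, 0.0492 and 0.04. Each also passed with the sgHS2 groups averaged (log2 changes of -0.28, -0.32 and -0.42). The calls in K were lost without any 1 library other than sgGal4 replicate 2 (adjusted p 0.0578 to 0.275). With the groups averaged, the call of MT-CO1 was lost in 9 of 10 fits that left out 1 library, that of MT-CO2 in 8 and that of MT-ND4L in 6, with the highest adjusted p without sgGal4 replicate 1 (0.176, 0.325 and 0.309). Without that library the log2 changes were -0.19, -0.17 and -0.20, and in K those of MT-CO2 and MT-ND4L were -0.29 and -0.33. MT-CO1 was at 14365 and 12563 TPM in sgGal4 and at 10113 to 11692 TPM in sgHS2, without overlap. MT-CO2 (33851 and 27644 TPM against 21413 to 28000 TPM) and MT-ND4L (65017 and 47940 TPM against 35366 to 49976 TPM) overlapped. MT-ND2, MT-ND3, MT-CYB, MT-ATP6 and MT-ATP8 passed in no comparison on the deposited scale. The most abundant, MT-ATP8, was at 127668 and 103391 TPM in sgGal4 and at 102265 to 127960 TPM in sgHS2, and overlapped. MT-ATP6 was at 31288 and 22752 TPM in sgGal4 and at 21100 to 26751 TPM in sgHS2, with log2 changes between -0.27 and -0.03. MT-ND3, a small complex I subunit, was at 20532 and 16935 TPM in sgGal4 and at 13918 to 18197 TPM in sgHS2, with log2 changes between -0.38 and -0.06. Both overlapped between the groups. MT-CYB, downstream of MT-ND6 on the genome but on the heavy strand, had log2 changes from -0.32 in K to 0.01 in KL. MT-ND2 was at 25836 and 16407 TPM in sgGal4 and at 13485 to 16448 TPM in sgHS2, with log2 changes between -0.55 and -0.35.

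The calls depended on the scale and on the model. With each compartment rescaled on its own, 6 of the 13 genes passed in K (1.99% of all tested genes), 4 in L (1.41%), 6 in LK (2.33%), 4 in KL (2.02%) and 8 with the groups averaged (3.91%). On that scale MT-ATP8 and MT-ND1 rose in K (0.24 and 0.32) and LK (0.20 and 0.28), and MT-ATP8 also in L (0.21). This rescaling moved the median log2 change of all tested genes from 0.06 to -0.06 in K and from 0.03 to -0.09 in LK. Median-of-ratios size factors left 2 genes in K, 0 in L, 1 in LK and 1 in KL. Of all tested genes 1.9%, 1.21%, 2.12% and 1.8% passed there. Without a mean-variance trend in the fit no member passed in any comparison, with an adjusted p of 0.0748 for MT-ND6 in KL. The direction of MT-ND6, MT-ND5, MT-ND4 and MT-CO3 against sgGal4 held in all 4 groups under each of these scales. Leaving out a library of the compared sgHS2 group lost the MT-ND6 call in LK (adjusted p 0.0808 without LK replicate 1 and 0.18 without LK replicate 2) and in K (0.0998 without K replicate 2), but not in KL. The MT-ND5 call was lost in K without K replicate 2 (0.0663), in L without either L library (0.126 and 0.139) and in LK without either LK library (0.057 and 0.061).

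Among nuclear-encoded members, subunits of every complex were expressed. Complex IV had the highest median level over its tested members (230 TPM, n = 11), followed by complex V (192 TPM, n = 15), complex III (98.1 TPM, n = 8), complex I (84.3 TPM, n = 33) and complex II (47.3 TPM, n = 4). The highest means within each complex were NDUFS6 for complex I (409 TPM), SDHB for complex II (63.9 TPM), UQCRB for complex III (737 TPM), COX7C for complex IV (416 TPM) and ATP5J2 for complex V (741 TPM). All of these encode small subunits or, for SDHB, the iron-sulfur subunit of succinate dehydrogenase. The lowest tested members were NDUFA9 (12.4 TPM), SDHD (28.2 TPM), UQCR11 (15.9 TPM), COX6B2 (4.47 TPM) and ATP5S (3.65 TPM). In all, 38 nuclear members averaged at least 100 TPM.

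Several subunits have tissue-specific isoforms. COX4I1 averaged 239 TPM, COX6A1 183 TPM, COX7A2 213 TPM and COX8A 299 TPM, and their partners COX4I2, COX6A2, COX7A1 and COX8C were listed at 0 in all libraries. No order is read from these listings, since ubiquitous subunits were also listed at 0, among them COX7B and ATP5L, whose partners COX7B2 and ATP5L2 averaged 0.6 and 0.14 TPM. COX6B1 averaged 398 TPM and the testis form COX6B2 4.47 TPM. NDUFA4 averaged 218 TPM and NDUFA4L2, known as a target of the hypoxia response, 0.37 TPM. ATP5G1, ATP5G2 and ATP5G3, which encode the same mature c subunit of ATP synthase, averaged 176, 177 and 86.9 TPM. UQCRH averaged 446 TPM. Some members have near-identical copies in the genome, and 47.9% of the 75-base windows of COX6A1, 45.9% of SDHC, 31.2% of SDHD and 22.5% of UQCRH occur elsewhere in GRCh37, which makes their levels uncertain.

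Of the 84 nuclear members, 13 averaged less than 1 TPM and were not tested. The 9 listed at 0 in all libraries were COX4I2, COX6A2, COX7A1, COX8C, NDUFA3, NDUFA6, NDUFB11, COX7B and ATP5L. The last 5 encode ubiquitous subunits, so a listing at 0 may be a failed estimate and is not read as absence, and 6069 of the 20535 listed genes were at 0 throughout. Between 0 and 0.46% of the 75-base windows of these 5 genes occurred elsewhere in GRCh37. NDUFB8, another ubiquitous subunit, averaged 0.47 TPM. NDUFA7 was listed at 0 in both sgGal4 libraries, in L replicate 2 and in KL replicate 2, and at 9.31 to 44.5 TPM in the other 6 libraries, so that no fold change is given for it.

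The nuclear members leaned upward in the sgHS2 groups, each by a small amount. Of the 71 tested, 61 had a positive log2 change with the 4 groups averaged (85.9%, median 0.27), against 53.6% of all tested genes (median 0.03). The counts were 61 in K, 62 in L, 61 in LK and 57 in KL, with medians of 0.29, 0.31, 0.29 and 0.22. Few passed the test on their own: 2 in K (where 0.879% of all tested genes were higher), 0 in L (0.306%), 3 in LK (1.18%), 0 in KL (0.632%) and 5 with the groups averaged (1.78%), all higher. At an unadjusted p under 0.05 there were 25 of 71 in K (1580 of all 10127 tested genes), 23 in L (1296), 20 in LK (1439), 11 in KL (1492) and 31 with the groups averaged (1730), so that the share in KL was close to that of all tested genes. With mitochondrial genes removed and the others rescaled, 54 of 71 (76.1%, median 0.17) were positive against 43.4% of all tested genes (median -0.07), and calls dropped to 1 in LK and 1 with the groups averaged. In bulk samples fewer cells of a kind and less RNA per cell cannot be told apart.

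**Figure D5:**
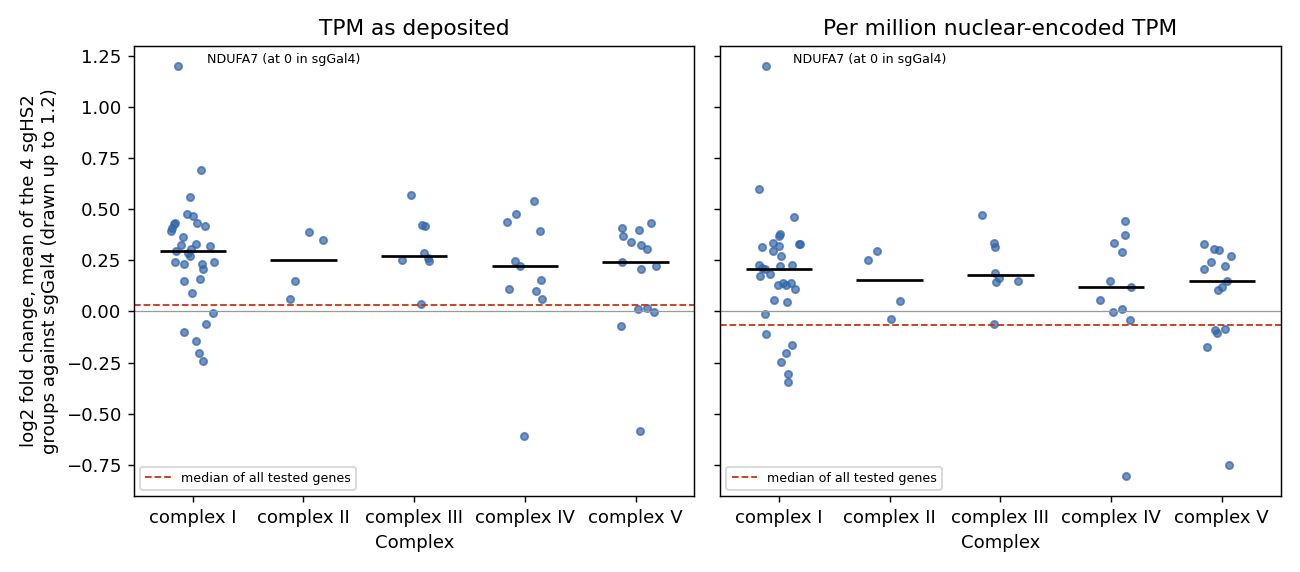
log2 fold change of the 71 tested nuclear members, mean of the 4 sgHS2 groups against sgGal4 on the log2(TPM + 1) scale, by complex, with a bar at each complex's median and a dashed line at the median of all tested genes (0.03 as deposited, left, and -0.07 with mitochondrial genes removed and the others rescaled, right). Every complex has a median above the dashed line on both scales, and NDUFA7, listed at 0 in sgGal4, is drawn at the upper limit of 1.2.

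The lean was seen in each complex. Median changes with the groups averaged were 0.30 for complex I (27 of 33 positive), 0.25 for complex II (4 of 4), 0.27 for complex III (8 of 8), 0.22 for complex IV (10 of 11) and 0.24 for complex V (12 of 15). The mitochondrial subunits of the same complexes had medians of -0.42 for complex I (n = 7), -0.32 for complex IV (n = 3) and -0.08 for complex V (n = 2), and -0.16 for MT-CYB in complex III. In these 4 complexes the medians of the nuclear and the mitochondrial subunits thus had opposite signs, on a scale with a fixed total. Rescaled on their own, the mitochondrial medians of complexes I, IV and V were -0.25, -0.15 and 0.09, with 0.01 for MT-CYB, and the nuclear medians were 0.21 for complex I, 0.15 for complex II, 0.18 for complex III, 0.12 for complex IV and 0.15 for complex V.

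Transcript length moved with this lean. Tested nuclear members had a median transcript length of 760.5 bases, against 3328.5 bases for all tested genes. Of the 565 other genes under 1000 bases, 73.8% were positive with the groups averaged (median 0.24), and of 41 nuclear members under 1000 bases 87.8% were (median 0.32). From 1000 to under 2000 bases the medians were 0.12 for 1770 other genes and 0.24 for 13 members, and from 4000 bases upward they were -0.06 for 3921 other genes and 0.20 for 8 members. The part of length in the change of the members was not tested.

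NDUFB10 (chr16:2009539-2011976 in GRCh37), an accessory subunit of complex I, was the nuclear member with the smallest adjusted p. It was at 213 and 207 TPM in sgGal4, 315 and 314 TPM in K, 266 and 321 TPM in L, 343 and 345 TPM in LK, and 265 and 333 TPM in KL. All 8 sgHS2 libraries lay above sgGal4. The log2 change was 0.71 ± 0.15 in LK (adjusted p = 0.0256) and 0.56 ± 0.12 with the groups averaged (adjusted p = 0.0171). The second call held when any 1 sgHS2 library was left out, but not without sgGal4 replicate 1 (0.0938) or 2 (0.069), and that in LK was lost without either sgGal4 library (0.0688 and 0.0541) or either LK library (0.18 and 0.223). Rescaled without mitochondrial genes it was 0.46 ± 0.12 (adjusted p = 0.0486), the only nuclear member still called with the groups averaged.

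Among complex IV subunits, COX7C (chr5:85913745-85916779), COX7A2 (chr6:75947391-75960039) and COX5B (chr2:98262525-98264846) passed. COX7C was at 296 and 335 TPM in sgGal4, 447 and 496 TPM in K, 434 and 433 TPM in L, 459 and 468 TPM in LK, and 356 and 431 TPM in KL. It rose by a log2 change of 0.58 ± 0.13 in K (adjusted p = 0.046), 0.55 ± 0.13 in LK (adjusted p = 0.0482) and 0.48 ± 0.11 with the groups averaged (adjusted p = 0.0252). COX7A2 was at 177 and 134 TPM in sgGal4, 253 and 261 TPM in K, 247 and 204 TPM in L, 249 and 226 TPM in LK, and 191 and 186 TPM in KL, with a log2 change of 0.73 ± 0.16 in K (adjusted p = 0.0391) and 0.54 ± 0.13 with the groups averaged (adjusted p = 0.0358). COX5B was at 187 and 171 TPM in sgGal4 and at 220 to 263 TPM in sgHS2, with 0.44 ± 0.11 (adjusted p = 0.0415). No sgHS2 library of these 3 genes overlapped sgGal4, and KL was nearest to it for COX7C and COX7A2. These genes were named for their p against sgGal4, so the separation adds no support. With the groups averaged, the COX5B call was lost without any 1 of the 10 libraries (adjusted p 0.0507 to 0.155), that of COX7A2 without any 1 of 8 libraries (all but sgGal4 replicate 1 and L replicate 2, 0.0539 to 0.244, with a log2 change of 0.34 without sgGal4 replicate 2), and that of COX7C without sgGal4 replicate 1, L replicate 2, KL replicate 2 or either LK library (0.0517 to 0.186). The calls in K and LK of COX7C and COX7A2 were each lost without any 1 of 9 libraries (adjusted p 0.051 to 0.321).

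UQCRQ (chr5:132202322-132204539), a small subunit of complex III, was at 73.7 and 98.1 TPM in sgGal4, 125 and 135 TPM in K, 106 and 136 TPM in L, 164 and 157 TPM in LK, and 88.4 and 121 TPM in KL. LK was highest and KL overlapped sgGal4. The log2 change in LK was 0.91 ± 0.20 (adjusted p = 0.0335), and it kept its call after rescaling (0.78, adjusted p = 0.0477) but not without sgGal4 replicate 1 (0.188) or either LK library (0.222 and 0.224). ATP5I (chr4:666225-668119), a subunit of the ATP synthase membrane domain, was at 281 and 348 TPM in sgGal4 and at 388 to 467 TPM in sgHS2, without overlap. Its log2 change with the groups averaged was 0.43 ± 0.11 (adjusted p = 0.0431), and the call was lost without any 1 library other than sgGal4 replicate 2 (adjusted p 0.06 to 0.307), with 0.28 without sgGal4 replicate 1.

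The largest changes of other tested nuclear members did not pass on the deposited scale. NDUFB7, of complex I, was at 41.2 and 80.9 TPM in sgGal4 and at 68 to 115 TPM in sgHS2, with a log2 change of 0.69 ± 0.20 (adjusted p = 0.0885). NDUFV1, the NADH-binding subunit, had 0.73 ± 0.18 in L (adjusted p = 0.0805). COX6B2 had -1.45 ± 0.56 in K (adjusted p = 0.225) from levels of 1.1 to 8.68 TPM over all libraries. In KL, ATP5G2 had 0.60 ± 0.17 (adjusted p = 0.109) and ATP5S -0.61 ± 0.55 (adjusted p = 0.679). Between dual and single effectors no member passed, mitochondrial or nuclear, where 0.0889% of all tested genes did, and 2 mitochondrial and 5 nuclear members had an unadjusted p under 0.05, as did 754 of the 10127 tested genes. The largest differences there were 1.04 ± 0.40 for COX6B2, 0.56 ± 0.34 for UQCR11 and -0.51 ± 0.20 for SDHD (adjusted p 0.595, 0.759 and 0.61). Between LK and KL no nuclear member passed, with 3 at an unadjusted p under 0.05 against 996 of the 10127 tested genes, and 53 of 71 were higher in LK (median 0.12, against -0.01 for all tested genes). UQCRQ had the largest of these differences after NDUFA7, 0.63 ± 0.20 (adjusted p = 0.276).

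Promoters of nuclear respiratory genes are known for sites of NRF1, GABP (an ETS factor) and YY1. RefSeq promoters of GRCh38.p14 were found for 68 of the 84 nuclear members. They run from 250 bases before to 50 bases after the first listed start of each gene. Other starts were not searched. Searched on both strands, the NRF1 core CGCATGC was in 19.1% of members and in 4.13% of all 27305 promoters. The ETS core CCGGAAG was in 27.9% and 10.7%, the YY1 core GATGGCG in 13.2% and 4.35%, and the CCAAT box, which NFY binds, in 32.4% and 35.7%. The 27305 promoters were not limited to tested genes or matched to the members, so whether these contrasts are particular to the members was not tested. Whether any of these cores bears on the changes above was not tested either. Of the nuclear members that passed, ATP5I and COX5B held both NRF1 and ETS cores, UQCRQ held an ETS core, and NDUFB10, COX7C and COX7A2 held none of the 4 in this window. The 250 bases before the start of ATP5I and COX5B are shown as the promoters with both cores, in the direction of transcription, with the cores in capitals. In ATP5I the NRF1 core overlaps itself on both strands and the ETS core lies after the start, and in COX5B the last ETS core runs past the start.
ATP5I, GRCh38.p14 minus strand, chr4:674277-674526: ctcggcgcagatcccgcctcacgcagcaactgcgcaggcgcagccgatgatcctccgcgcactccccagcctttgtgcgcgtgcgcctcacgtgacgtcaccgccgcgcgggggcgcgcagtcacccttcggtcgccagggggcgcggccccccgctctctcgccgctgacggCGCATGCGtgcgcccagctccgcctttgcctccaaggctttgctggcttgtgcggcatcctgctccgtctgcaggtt
COX5B, GRCh38.p14 plus strand, chr2:97645812-97646061: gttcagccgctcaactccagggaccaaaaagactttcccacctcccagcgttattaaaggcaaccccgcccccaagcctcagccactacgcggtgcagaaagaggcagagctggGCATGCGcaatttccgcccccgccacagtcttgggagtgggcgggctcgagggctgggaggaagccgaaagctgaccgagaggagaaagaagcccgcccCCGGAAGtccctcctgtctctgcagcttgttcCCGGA

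Genes that serve the respiratory chain without being subunits by the symbol rule were counted by list. Of 32 genes for mitochondrial DNA maintenance, transcription and RNA processing, 30 were tested and 1 passed, in K, in LK and with the groups averaged. The shares of all tested genes in these comparisons were 1.62%, 2% and 3.26%. With the groups averaged, the list had a median log2 change of 0.08, and of -0.01 after rescaling. All tested genes had medians of 0.03 and -0.07. The gene that passed was SLIRP, which with LRPPRC stabilizes heavy-strand mitochondrial mRNAs. It was at 143 and 132 TPM in sgGal4, 254 and 260 TPM in K, 203 and 209 TPM in L, 241 and 295 TPM in LK, and 137 and 190 TPM in KL. Only KL overlapped sgGal4. SLIRP rose by 0.90 ± 0.17 in K (adjusted p = 0.0182) and 0.95 ± 0.17 in LK (adjusted p = 0.0122), also after rescaling (adjusted p 0.0471 and 0.0345).

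Of 45 assembly factors, 43 were tested. In LK 2 passed (2% of all tested genes did), and 1 passed with the groups averaged (3.26%). The list's median log2 change with the groups averaged was 0.19, against 0.03 for all tested genes. COX20 and NDUFAF3 were higher in LK (0.95 ± 0.22 and 0.81 ± 0.19, adjusted p 0.0426 and 0.0419), but not after rescaling (0.077 and 0.0982). NDUFAF1, a complex I assembly factor, was lower with the groups averaged (-0.79 ± 0.20, adjusted p = 0.0472, and 0.0221 after rescaling). NDUFAF1 was at 29.1 and 26.1 TPM in sgGal4 and the 4 group means of sgHS2 lay between 13.4 and 18.5 TPM. Of 5 further subunits and electron carriers outside the symbol rule, ATPIF1, the inhibitor of ATP synthase, was higher in L, LK and KL. Its log2 changes were 0.56, 0.47 and 0.54 (adjusted p 0.0265, 0.0411 and 0.0213). C14orf2, a small ATP synthase subunit, was higher in K and LK (0.75 and 0.70, adjusted p 0.0317 and 0.038). Of all tested genes 1.62% passed in K, 0.869% in L, 2% in LK and 1.36% in KL. After rescaling ATPIF1 kept its calls in L and KL (0.0247 and 0.0422) but not in LK (0.0995), and C14orf2 lost those in K and LK (0.0515 and 0.0754). With the groups averaged both genes passed, where 3.26% of all tested genes did. The log2 changes were 0.46 ± 0.09 for ATPIF1 (adjusted p = 0.0092) and 0.66 ± 0.12 for C14orf2 (adjusted p = 0.0106). Both kept these calls after rescaling (0.0215 and 0.0221). Of 16 nuclear regulators of respiratory genes, 14 were tested and only HIF1A passed, in KL (-1.14 ± 0.25, adjusted p = 0.0409). In KL 1.36% of all tested genes passed, and the median log2 change was -0.155 for this list and 0.05 for all tested genes. HIF1A, the oxygen-regulated transcription factor, was at 34.3 TPM in both sgGal4 libraries, 25.7 and 19.6 TPM in K, 23.3 and 20.2 TPM in L, 21.5 and 22.9 TPM in LK, and 17.1 and 13.2 TPM in KL. All 8 sgHS2 libraries lay below sgGal4.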

How the data were processed

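RNA-seq of 10 K562 libraries in 5 groups of 2 was analysed, with groups and replicate numbers from the labels. Alignment by the authors was to hg19 (STAR 2.5.2b). They retained uniquely mapped reads only, and deposited RSEM TPM values by gene symbol with 2 decimals. The annotation, the read length and the strand setting are not given in the sources used here. The labels name a directional poly(A) kit and the study's methods another kit. TPM keeps no depth, so counting intervals and a count-based test, which the study names, could not be used.

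Values were transformed to log2(TPM + 1), and the 10127 genes averaging 1 TPM or more were fitted over all 10 libraries in limma 3.58.1 (R 4.3.3) with a mean-variance trend and 5 residual degrees of freedom. Fold changes on this scale understate changes of low genes. Benjamini-Hochberg adjusted p-values (two-sided) cover all tested genes in each of 7 comparisons: K, L, LK, KL and their mean against sgGal4, LK and KL against K and L, and LK against KL. The fit was tested on simulated data. Alternatives changed the pseudocount (0.1), the filter (none or 10 TPM), the scaling, the trend, the libraries and a replicate block. Rescaling each compartment and the split by transcript length were added after seeing the data.

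Members, gene lists and tests were chosen with earlier results of these data known. Named with values were all mitochondrial genes, nuclear members past an adjusted p of 0.05 in any comparison, those listed at 0, the highest and lowest of each complex, isoform sets and the 3 nuclear members of largest change per comparison. ATP5J was chosen after its values were seen. Coordinates and transcript lengths come from GENCODE release 44 on GRCh37, and promoters from RefSeq.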

Additional observations from a re-analysis of the deposited data

Results flagged for a closer look

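MT-ND6 was singled out because LK and KL, which hold the same effectors in the opposite arrangement, differed in its change: the LK minus KL difference was -0.51 ± 0.09 on the log2 scale (limma, adjusted p = 0.0308), with 20643 and 21700 TPM in LK and 29636 and 30489 TPM in KL.

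ATP5J, the coupling factor of ATP synthase and one of the most abundant nuclear members, stood out because its levels in KL and in the single effectors lay on opposite sides of sgGal4, although none of these differences passed the test. It was at 669 and 576 TPM in sgGal4, 548 and 565 TPM in K, 483 and 539 TPM in L, 585 and 587 TPM in LK, and 763 and 703 TPM in KL. Both KL libraries (mean 733 TPM) lay above both sgGal4 libraries, and all K and L libraries lay below them. Against sgGal4 the log2 difference was 0.24 in KL, -0.16 in K and -0.28 in L (limma, adjusted p 0.39, 0.577 and 0.341). The difference of KL from K and L was not tested as such. The difference of dual from single effectors, 0.30 ± 0.09, did not pass (adjusted p = 0.371).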

How the results depend on the processing

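Results are named here by comparison: all (the mean of the sgHS2 groups), K, L, LK and KL, each against sgGal4, LK against KL, and both effectors against 1 (dual against single). With size factors, calls among the 13 mitochondrial genes were 3 in all, 2 in K, 0 in L, 1 in LK and 1 in KL. For LK against KL there were 0. Among the 71 tested nuclear members they were 2 in all, 0 in K, 1 in L and 1 in LK. The shares of all tested genes were 3.7% in all, 1.9% in K, 1.21% in L, 2.12% in LK and 1.8% in KL. With no filter, mitochondrial calls were 0 in all, K, L, LK and LK against KL and 1 in KL. Nuclear calls were then 1 in all and 0 in K and LK. Without the trend 0 members of either kind were called. Fitted on the compared groups alone, mitochondrial calls were 2 in K, 0 in L, 0 in LK, 1 in KL, 2 for LK against KL and 2 for dual against single, and nuclear calls 1 in K and 1 in LK. Rescaling each compartment gave 4 mitochondrial calls in L (1.41% of all tested genes), 2 for LK against KL (0.474%) and 1 for dual against single (0.148%). Nuclear calls were 4 in K and 6 in LK with a filter of 10 TPM, 1 in K with a pseudocount of 0.1, and 1 in all, 0 in K and 1 in LK with mitochondrial genes removed. The cause of these shifts was not tested. For the other settings here and below, shares of all tested genes are not given, so those counts stand without that background. All alternatives kept the direction of each single call, and the call itself was lost in 285 refits and kept in 309.

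With 1 library left out, mitochondrial calls ranged from 4 to 11 in all, 1 to 11 in K, 0 to 6 in L, 0 to 10 in LK, 1 to 10 in KL, 0 to 2 for LK against KL and 0 to 2 for dual against single, with the highest counts without sgGal4 replicate 2. Nuclear calls ranged from 1 to 7 in all, 0 to 5 in K, 0 to 2 in L, 0 to 7 in LK and 0 to 1 in KL. The difference in mitochondrial share ranged from -9.70 to 0.267 percentage points (0.267 without sgGal4 replicate 1), that in nuclear share from 0.246 to 0.303 points, and the log2 ratio of both sums from -0.71 to -0.14. Where a group was left with 1 library, it was assumed to vary like the others.

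Equal replicate numbers do not pair the samples: deviations of same-numbered libraries correlated by -0.0213 to 0.0229. A replicate block gave 6 mitochondrial calls in all, 5 in K, 1 in L, 3 in LK and 3 in KL, and 4 nuclear calls in all, 2 in K and 2 in LK. TPM keeps no read depth, so what depth limits could not be assessed.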
